A study of Mus musculus with 2 samples.

Results

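Heat shock proteins are chaperones, which bind other proteins while these fold, are moved across membranes or unfold under stress. The 10 genes described here encode the stress-inducible HSP70 proteins (Hspa1a, Hspa1b), their constitutive relative (Hspa8), the J-domain partner that brings clients to HSP70 (Dnajb1), its nucleotide exchange factor of the HSP110 family (Hsph1), the small heat shock protein HSP27, known for binding unfolding proteins without ATP and for effects on actin (Hspb1), both cytosolic HSP90 proteins (the inducible Hsp90aa1 and the constitutive Hsp90ab1), and the chaperonin of the mitochondrial matrix with its lid (Hspd1 and Hspe1). They were chosen by name, by matching the Ensembl gene identifier of each row to its symbol, and all 10 had a row at both ages, of 19813 genes with a row at both. Transcription of the inducible members is driven by heat shock factor 1, which is bound by chaperones in resting cells and, once released, binds inverted repeats of the letters GAA in promoters. Endothelial cells line blood vessels. In the mouse retina they spread from the optic nerve head as a growing plexus after birth, with tip cells at the front and stalk cells behind, and later remodel into arteries, capillaries and veins.

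Retinal endothelial cells of wild-type C57BL/6 mice, sorted by FACS as CD31+CD45- cells (CD31 marks endothelium, CD45 marks blood cells), were sequenced as 1 droplet library at postnatal day 6 (P6) and 1 library at P15. A random tag on every captured transcript, the unique molecular identifier (UMI), lets amplified copies of 1 transcript count as 1. There is 1 library per age, so age and library cannot be told apart, no test of age was possible, and every interval below covers counting error only, at 95%. How many animals gave each library is not given in the sources used here. Levels are in CPM, the UMIs of a gene per 1000000 UMIs of the same cells. They are compared between ages and clusters for the same gene and not between genes.

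Ages were compared over 1424 P6 cells and 1644 P15 cells that passed the exclusion criteria of the study, which together held 7647084 and 7370319 UMIs, with a median of 4985.5 and 4214.5 UMIs per cell. The endothelial markers Pecam1, Cdh5, Cldn5, Tie1 and Kdr were present at both ages (5 of 5), and their summed level was 7401 CPM at P6 and 11960 CPM at P15. The summed level of pericyte markers was 9.81 CPM at P6 (4 of 5 present, Cspg4 at 0) and 262.1 CPM at P15 (5 of 5), mostly Rgs5. Photoreceptor and neuron markers summed to 18.6 and 62.7 CPM (4 of 5 at each age, with Neurod1 at 0 by the criteria), hemoglobin genes to 22.6 and 172 CPM (3 of 4, with Hbb-bt at 0 by the criteria), and glial markers to 368.6 and 1227 CPM (4 of 4 with a row, mostly Glul). Leukocyte markers were at 1.31 and 3.94 CPM (3 of 3 with a row). The summed markers of each of these other cell types were higher at P15, and their part in the results below was not tested except where values are given. A lower CPM of a gene cannot be told apart from more RNA of other genes in the same cells. Clusters are those the study assigned, which were used for 1560 P6 cells and for 438 P15 cells, the first of the P15 labels and not all of them. Labelled cells were used whether or not they passed the criteria, which 1399 at P6 and 409 at P15 did. The criteria as read here thus leave out some cells that the study labelled. Cell barcodes shared by the libraries numbered 7.

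In the GENCODE M21 annotation of GRCm38, Hspa1a (chr17:34969190-34972156) and Hspa1b (chr17:34956436-34959238) lie side by side on the minus strand, with Hsp90ab1 on the same chromosome (chr17:45567775-45573271). Hspd1 (chr1:55077835-55088243) and Hspe1 (chr1:55088132-55091307) overlap at their starts on opposite strands. The other members are Dnajb1 (chr8:83608193-83612653), Hsph1 (chr5:149614287-149636376), Hspb1 (chr5:135887919-135889563), Hsp90aa1 (chr12:110690605-110702728) and Hspa8 (chr9:40800984-40810087), all protein-coding.

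The promoters show which members carry the recognition letters of heat shock factor 1. RefSeq promoter sequences of build GRCm38.p6, from 250 bases before to 50 bases after each start, were matched for 7 of 10 members. None was matched for Hsp90aa1, Hsp90ab1 and Hspa8. A pair of inverted repeats, GAANNTTC or TTCNNGAA, was found in 6 of these 7 members and in 17.0% of all 27025 genes with a promoter sequence. Both patterns read the same on either strand. A run of 3 repeats, in which either pattern goes on after 2 bases of any kind with the next inverted repeat (GAA after TTC, or TTC after GAA), overlaps the shorter pattern and was found in Hsph1, Hspd1 and Hspe1 and in 0.662% of all genes. Printed below are the 160 bases before the start of the members whose levels differed most between the ages, with matches of the shorter pattern in capitals.

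Hspa1a, chr17:34972157-34972316, minus strand: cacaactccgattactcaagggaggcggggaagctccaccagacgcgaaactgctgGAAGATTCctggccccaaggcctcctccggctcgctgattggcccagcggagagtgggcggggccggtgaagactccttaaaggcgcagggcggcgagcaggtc

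Hspb1, chr5:135887759-135887918, plus strand: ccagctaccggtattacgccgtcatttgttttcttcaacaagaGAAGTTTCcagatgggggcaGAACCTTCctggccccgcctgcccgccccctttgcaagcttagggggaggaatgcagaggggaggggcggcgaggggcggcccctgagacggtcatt

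Hspe1, chr1:55087988-55088147, plus strand: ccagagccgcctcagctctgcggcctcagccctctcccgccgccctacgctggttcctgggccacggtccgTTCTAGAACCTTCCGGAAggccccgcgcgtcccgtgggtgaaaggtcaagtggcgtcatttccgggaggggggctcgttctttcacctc

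The matches lie at bases -104 to -97 of Hspa1a, at -117 to -110 and -97 to -90 of Hspb1, and in a run of 3 overlapping matches at -89 to -72 of Hspe1. Hspd1 and Hspe1 stand head to head, and the run in the Hspe1 promoter (chr1:55088059-55088076) is the same 18 bases that lie in the Hspd1 promoter on the other strand. The Hspa1a and Hspa1b promoters were the same at 296 of 300 bases (98.7%), with the differences C44T, T47C, T249G and C276T, given as the Hspa1a base, its position from the first base of the promoter sequence, and the Hspa1b base. Dnajb1 held no match in its 2 promoter sequences. Matches were thus present in Hspa1a and Hspb1, which were higher at P15, and in Hspd1 and Hspe1, which were lower. A match describes these letters only and says nothing of binding.

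Hspb1 differed most between the ages among the 10 genes. It was at 39.5 CPM (35.2 to 44.2) at P6 and 186.8 CPM (177.1 to 197.0) at P15, a ratio of 4.73 (4.17 to 5.38), the 124th highest of the 10972 genes with at least 50 UMIs over both libraries. A UMI of Hspb1 was found in 14.9% of P6 cells and 46.3% of P15 cells. With every cell reduced at random to 2000 UMIs, leaving out 13 P6 and 172 P15 cells below that depth, the shares were 6.45% and 27.7%. The mean was 1.42 UMIs at P6 and 1.81 UMIs at P15 in cells where it was found, and the highest cell held 9 UMIs at P6 and 16 at P15. Free RNA in droplets can give UMIs in cells that do not express a gene, and no cell type known to lack these chaperones was present to set that background. In the 98 P6 barcodes with a UMI of the neuronal gene Neurod1 (median 5568 UMIs) an Hspb1 UMI was found in 6.12%, against 14.9% of passing cells, at 6.95 CPM against 39.5 CPM. In the 17 such P15 barcodes (median 6379 UMIs) the share was 58.8%, against 46.3% of passing cells, at 131.2 CPM against 186.8 CPM, so that at P15 these barcodes do not set the share of passing cells apart from background. At P15 Hspb1 was at 184.8 CPM in the 454 cells with a UMI of a pericyte marker and at 187.8 CPM in the 1190 cells without. Of the 31-base words in the last 400 bases of its transcript, 28.4% are shared with the pseudogene Hsp25-ps1, and how reads of such words were counted is not given in the sources used here.

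**Figure D1:**
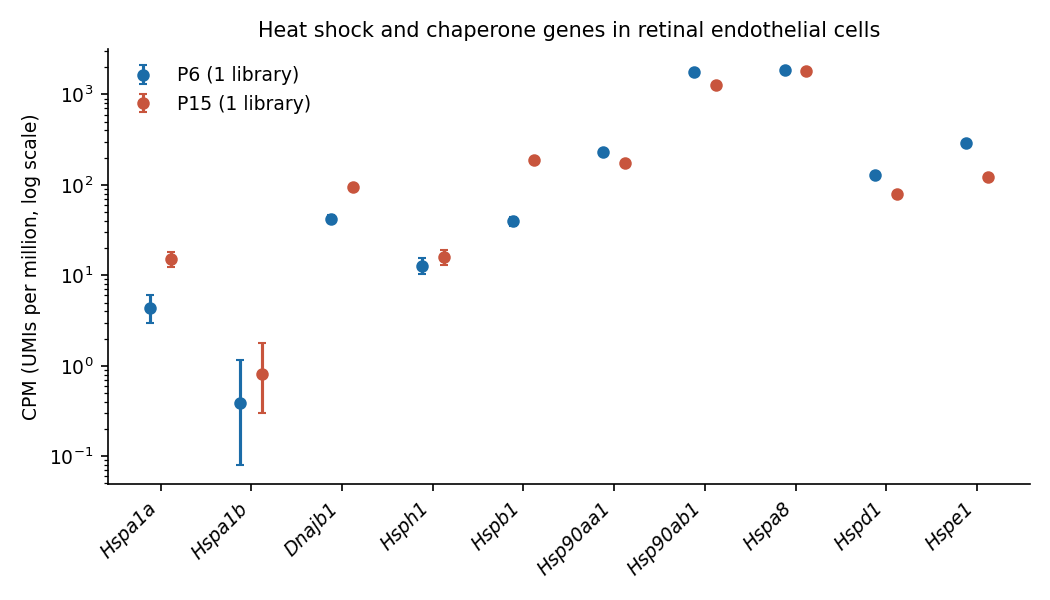
Level of each of the 10 genes in CPM (log axis) in the P6 library (blue) and the P15 library (red), over cells that passed the exclusion criteria, with exact Poisson 95% intervals. Hspb1, Dnajb1 and Hspa1a sit higher at P15, with intervals that do not overlap, and Hspe1, Hspd1, Hsp90ab1 and Hsp90aa1 sit lower.

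The inducible HSP70 genes were scarce at both ages. Hspa1a was at 4.32 CPM (2.97 to 6.06) at P6 and 15.1 CPM (12.4 to 18.1) at P15, from 33 and 111 UMIs, a ratio of 3.49 (2.35 to 5.32). It was found in 1.47% of P6 and 4.74% of P15 cells, and in 0.567% and 2.58% of thinned cells. Hspa1b had 3 UMIs at P6 and 6 at P15, a ratio of 2.08 (0.443 to 12.8), so that no difference was detectable at this depth. The last 400 bases of the Hspa1a and Hspa1b transcripts share no 31-base word with each other or with another gene. No cell held more than 3 UMIs of Hspa1a at P6 or 5 at P15.

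Among the HSP70 partners, a difference was detectable for Dnajb1 and not for Hsph1. Dnajb1 was at 42.1 CPM (37.6 to 47.0) at P6 and 94.3 CPM (87.4 to 101.6) at P15, a ratio of 2.24 (1.96 to 2.56), and was found in 19.7% and 31.02% of cells, or 7.51% and 15.2% of thinned cells. Hsph1 was at 12.7 CPM (10.3 to 15.5) at P6 and 15.9 CPM (13.1 to 19.0) at P15, a ratio of 1.25 (0.948 to 1.66), and its share of cells was 6.46% and 6.87%. The inducible genes Hspa1a, Hspa1b, Dnajb1 and Hsph1 together were at 59.5 CPM at P6 and 126 CPM at P15, a ratio of 2.12 (1.89 to 2.38), most of it Dnajb1. The ratio was 1.79 in the cells without a UMI of a pericyte, neuron, erythroid, leukocyte or glial marker other than Glul (1110 P6 and 419 P15 cells), and Dnajb1 was then at a ratio of 1.68. This choice of cells was made after the data were seen. At P15 Dnajb1 was at 112.9 CPM (99.7 to 127.4) in the 454 cells with a UMI of a pericyte marker. It was at 85.6 CPM (77.7 to 94.1) in the 1190 cells without.

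The constitutive genes were near level or lower at P15. Hspa8 was at 1879 CPM (1849 to 1910) at P6 and 1804 CPM (1774 to 1835) at P15, a ratio of 0.960 (0.938 to 0.983), and was found in 99.3% and 97.3% of cells. Hsp90ab1 was at 1776 CPM (1746 to 1806) and 1259 CPM (1233 to 1285), a ratio of 0.709 (0.691 to 0.728). Hsp90aa1, although heat-inducible, was also lower at P15, at 233 CPM (222.3 to 244.1) and 174.5 CPM (165.1 to 184.3), a ratio of 0.749 (0.696 to 0.805), and was found in 60.0% and 48.5% of cells. Most words in the last 400 bases of the Hspa8 transcript (81.4%) are shared with other genes, mainly pseudogenes such as Gm8355, as are 14.6% of those of Hsp90ab1 and 1.08% of those of Hsp90aa1, so the Hspa8 level in particular is uncertain.

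Both genes of the mitochondrial chaperonin were lower at P15. Hspe1, its lid, was at 288.7 CPM (276.8 to 301.0) at P6 and 123.1 CPM (115.2 to 131.3) at P15, a ratio of 0.426 (0.394 to 0.461), the 460th lowest of 10972 genes. It was found in 67.9% of P6 and 39.4% of P15 cells, and in 40.6% and 21.8% of thinned cells. Hspd1, the chamber, was at 130 CPM (122 to 138.3) and 79.0 CPM (72.7 to 85.6), a ratio of 0.608 (0.547 to 0.674), and was found in 44.9% and 27.7% of cells. Hspd1 shares no word of its last 400 bases with another gene, whereas 72.4% of those of Hspe1 are shared, so the size of the Hspe1 difference is uncertain.

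Of the 9 members with at least 50 UMIs over both libraries, Hspa1a, Dnajb1 and Hspb1 were at least 1.5-fold higher at P15, where 18.8% of the 10972 genes were, and Hspd1 and Hspe1 at least 1.5-fold lower, where 11.8% of genes were. In either direction this was 5 of 9, with 30.7% of genes. The median log2 ratio was -0.06 over the members and 0.12 over all genes. The members thus did not share a direction, and the 10 together were at 4406 CPM at P6 and 3753 CPM at P15.

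These differences were next examined within clusters, in the 6 clusters with at least 30 labelled cells at each age, which are Primitive (Primordial in the study's labels), Stalk, Tip, Cap-Venous, Capillary and Cap-Arterial. Hspb1 was higher at P15 in 6 of 6, with every interval above 1, as was the case for 1.36% of all genes. That share depends on depth, because genes with few UMIs have wide intervals. The Hspb1 ratio was 2.49 (1.69 to 3.65) in Cap-Arterial cells, 3.80 (1.79 to 7.67) in Primitive, 3.88 (3.07 to 4.90) in Cap-Venous, 4.96 (3.37 to 7.34) in Stalk, 6.17 (3.82 to 10.1) in Tip and 8.54 (3.86 to 19.9) in Capillary cells. The lowest ratio was in the cluster with the highest P6 level, 71.8 CPM, and the P15 levels of the 5 other than Primitive lay between 165.4 and 206.9 CPM with overlapping intervals. Dnajb1 was higher in 6 of 6, as were 11.4% of genes, at ratios from 1.40 (0.528 to 3.17) in Primitive to 3.30 (1.45 to 7.23) in Capillary cells, with 5 intervals above 1. Hspa1a was higher in the 5 clusters that held a UMI, with 2 intervals above 1, which were those of Stalk at 5.92 (1.95 to 19.8) and Cap-Arterial at 4.73 (1.72 to 14.2). In Tip and in Capillary cells it had 1 UMI at each age, which gives no direction, and Cap-Venous was at 1.34 (0.374 to 4.01). In Primitive cells no Hspa1a UMI was found at either age, which allows up to 3.19 CPM at P6 and 24.2 CPM at P15.

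**Figure D2:**
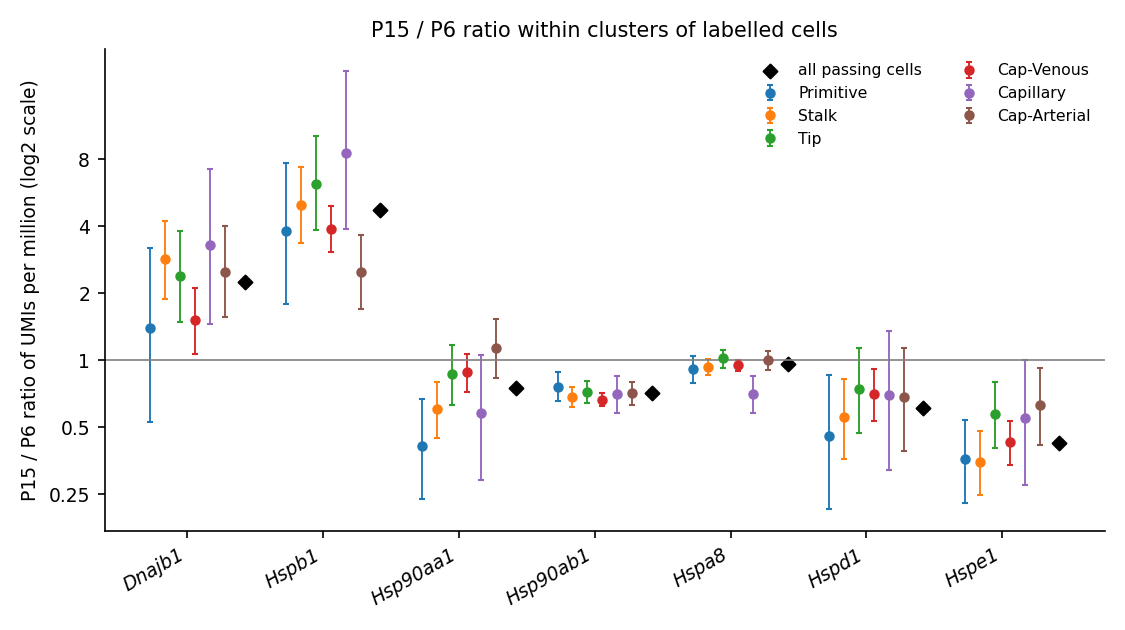
Ratio of CPM at P15 to P6 (log2 axis) for 7 genes within each of 6 clusters of labelled cells (coloured points, conditional binomial 95% intervals) and over all passing cells (black diamonds). The line marks equal levels. All 6 points lie above it for Hspb1 and Dnajb1 and below it for Hsp90ab1, Hspd1 and Hspe1.

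Hsp90ab1 and Hspe1 were lower at P15 in 6 of 6 clusters with every interval below 1, as was the case for 1.29% of all genes. That share also depends on depth, because genes with few UMIs have wide intervals. The Hsp90ab1 ratio varied little, from 0.664 (0.619 to 0.712) in Cap-Venous to 0.761 (0.653 to 0.882) in Primitive cells. The Hspe1 ratio ran from 0.348 (0.247 to 0.478) in Stalk to 0.628 (0.417 to 0.922) in Cap-Arterial cells. In Capillary cells, with 12 Hspe1 UMIs at P15, the interval ended at 0.9995. Hspd1 was lower in 6 of 6, as were 9.95% of genes, at 0.455 (0.214 to 0.858) in Primitive to 0.742 (0.468 to 1.13) in Tip cells, with 3 intervals below 1. Hsp90aa1 differed between clusters, at 0.412 (0.237 to 0.670) in Primitive and 0.603 (0.447 to 0.800) in Stalk cells against 1.13 (0.830 to 1.53) in Cap-Arterial cells, although the difference between clusters was not tested. Hspa8 lay between 0.704 (0.579 to 0.850) in Capillary and 1.02 (0.926 to 1.11) in Tip cells.

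The members were next compared between clusters of the P6 library. Of the 8 members with at least 50 UMIs in labelled P6 cells, 14 of 72 pairs of member and cluster (19.4%) lay at least 1.5-fold from the other labelled cells, 6 higher and 8 lower. This share was below the 29.7% of all pairs of gene and cluster that did so over the same 9 clusters. That background includes genes with as few as 50 UMIs, whose ratios vary more by counting error. These shares therefore do not show whether the members stood out as a group, and the values below describe single genes. Proliferative cells, Primordial-Proliferative in the study's labels, held Hsp90aa1 at 373.3 CPM, 1.70 (1.55 to 1.86) times the other labelled cells, and Hspd1 at 191.1 CPM, 1.501 (1.32 to 1.70) times, so that 2 of 8 members were higher, where 10.3% of genes were. Hspa8 was at 1.21 (1.17 to 1.25) times in the same cells. Hspb1 had its lowest level there, 14.9 CPM (9.66 to 22.04), with an interval that overlapped that of Capillary cells at 21.0 CPM (10.5 to 37.6). It was at 0.351 (0.224 to 0.527) times the other cells, 1 of 8 members lower, where 13.6% of genes were. Proliferative cells were the deepest of the P6 clusters, with a median of 7954.5 UMIs.

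Primitive cells were the cluster with the most Hspe1, at 539.4 CPM (493.5 to 588.4) and in 94.2% of cells, 2.02 (1.84 to 2.23) times the other labelled P6 cells. The next cluster, Proliferative, was at 328.5 CPM with an interval that did not overlap. In Primitive cells Hsp90aa1 was at 1.41 (1.24 to 1.58), Hspd1 at 1.32 (1.12 to 1.56) and Hsp90ab1 at 1.15 (1.09 to 1.20) times the others. At least 1.5-fold higher were Hspe1 and Hsph1, the latter at 1.66 (0.979 to 2.70) from 20 UMIs, 2 of 8 where 5.65% of genes were higher, and none of 8 was lower where 43.1% of genes were. The median log2 ratio in Primitive cells was 0.30 over the members and -0.42 over all genes.

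Venous and Cap-Arterial cells held less of several members. Venous cells (42 cells) held Hspd1 at 0.450 (0.266 to 0.714), Hspe1 at 0.520 (0.377 to 0.700) and Hsp90aa1 at 0.577 (0.413 to 0.786) times the other cells, and with Hsph1, which had 1 UMI there, 4 of 8 members were at least 1.5-fold lower, where 21.0% of genes were. Cap-Arterial cells held Hspe1 at 0.570 (0.479 to 0.674) and Hspd1 at 0.645 (0.506 to 0.813) times, 2 of 8 lower where 14.3% of genes were. The highest Hspb1 level was that of Cap-Arterial cells, with 71.8 CPM and 2.08 (1.55 to 2.75) times the others, 1 of 8 higher where 16.4% of genes were, followed by Cap-Venous cells at 53.4 CPM and 1.68 (1.35 to 2.08) times, 1 of 8 higher where 3.25% of genes were. The intervals of these 2 levels overlapped. Capillary cells held Hspb1 at 0.544 (0.269 to 0.985) times, 1 of 8 lower where 12.3% of genes were, and were the shallowest cells, with a median of 3204 UMIs and the highest mitochondrial share. In the 40 Arterial cells, Hspa1a was at 25.3 CPM (8.22 to 59.1) from 5 UMIs in 7.5% of cells, 7.97 (2.41 to 20.7) times the others, and Hsp90ab1 was at 0.784 (0.695 to 0.882) times. No member with 50 UMIs lay 1.5-fold away in Stalk, Tip or Arterial cells, where 14.4%, 19.1% and 49.2% of genes did in either direction.

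**Figure D3:**
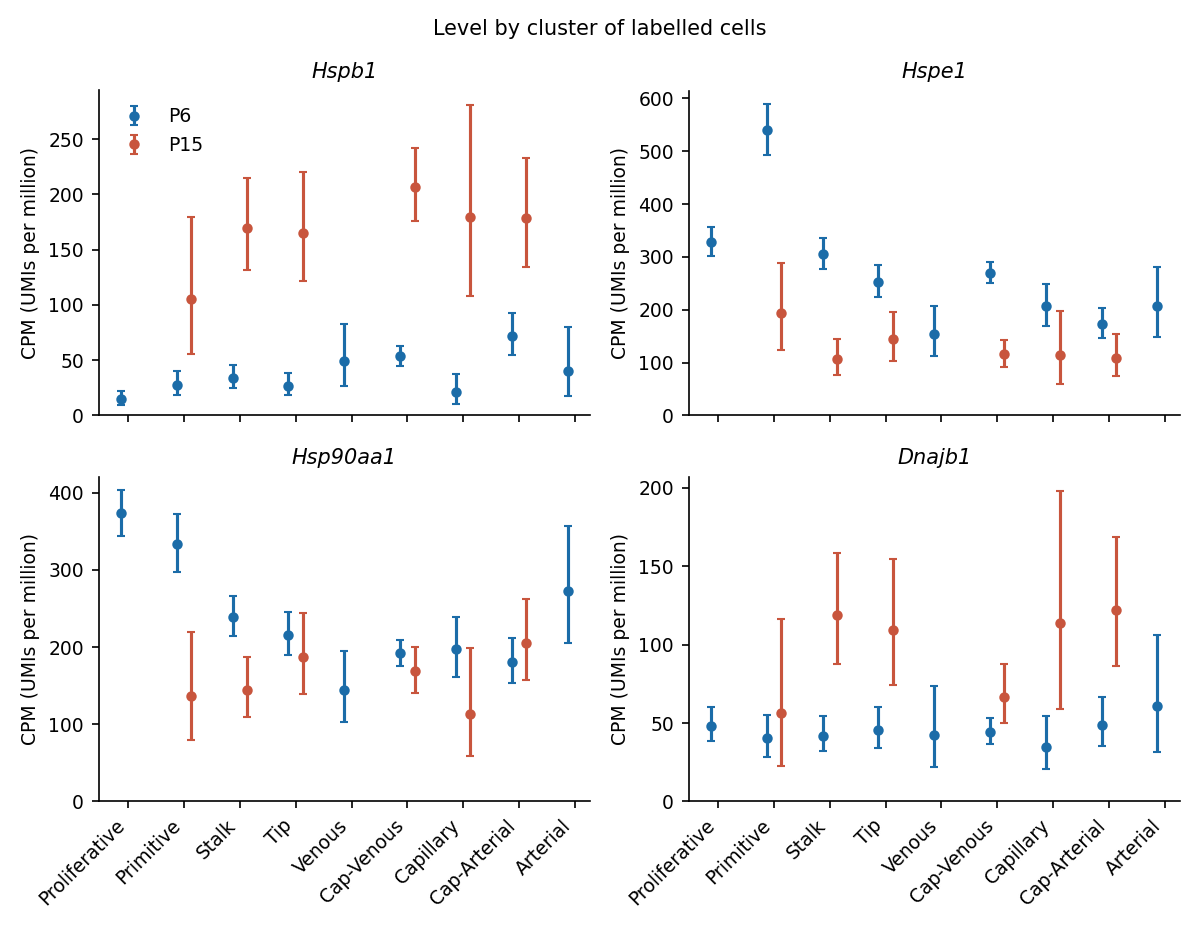
Level of Hspb1, Hspe1, Hsp90aa1 and Dnajb1 in CPM in each cluster with at least 30 labelled cells at P6 (blue) and P15 (red), with exact Poisson 95% intervals. Hspe1 and Hsp90aa1 are highest in Primitive and Proliferative cells at P6, Hspb1 is lowest in Proliferative cells at P6 and sits above 100 at P15 in every cluster shown, and Dnajb1 lies between 34.4 and 60.7 across the P6 clusters.

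In the labelled P15 cells, 6 of 42 pairs (14.3%) lay at least 1.5-fold away over the 7 members with 50 UMIs. The share of all pairs of gene and cluster over the 6 clusters was 26.5%, with the same limit as at P6. Hspe1 was again higher in Primitive cells, at 1.62 (1.02 to 2.47) times the others, 1 of 7 where 10.7% of genes were higher, and Hsp90ab1 was at 1.26 (1.08 to 1.46) times. Also in Primitive cells, Hspb1 was at 0.588 (0.310 to 1.02) and Dnajb1 at 0.587 (0.233 to 1.23) times the others, 2 of 7 lower where 36.2% of genes were. Capillary cells held Hspa8 at 0.645 (0.536 to 0.771) and Hsp90aa1 at 0.626 (0.320 to 1.11) times, 2 of 7 lower where 21.6% of genes were. Cap-Venous cells held Dnajb1 at 0.613 (0.437 to 0.847) times, 1 of 7 lower where 6.09% of genes were, and Hspb1 at 1.32 (1.07 to 1.63) times. Hspa1a had 32 UMIs in all labelled P15 cells, of which 12 were in 13.2% of the 68 Cap-Arterial cells, 3.64 (1.62 to 7.82) times the others, and 5 in 134 Cap-Venous cells, 0.334 (0.1004 to 0.879) times. The 14 labelled Proliferative P15 cells were too few for a comparison. No member with 50 UMIs lay 1.5-fold away in Stalk, Tip or Cap-Arterial cells, where 14.8%, 24.6% and 23.1% of genes did in either direction.

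The inducible members were next read beside immediate early genes, which cells transcribe within minutes of many stimuli. Of 11 such genes with at least 50 UMIs, 10 were at least 1.5-fold higher at P15, where 18.8% of all genes were. The summed level of the 11 was 949.5 CPM at P6 and 3575 CPM at P15, a ratio of 3.77 (3.67 to 3.87). Dusp1, a phosphatase of MAP kinases, was at the highest ratio of 6.15 (5.66 to 6.68), and Atf3, a stress-induced transcription factor, at the lowest of 1.37 (1.08 to 1.76). The part of immediate early genes in the level of the members was not tested beyond the values that follow. By cluster the summed level ran from 401.4 CPM in Primitive to 3047 CPM in Arterial cells at P6, and from 1025 CPM in Primitive to 4407 CPM in Cap-Arterial cells among P15 clusters of at least 30 cells, and the inducible members were at 61.6 CPM (46.8 to 79.6) and 101.2 CPM (61.8 to 156.3) in the former pair and 88.8 CPM (44.3 to 158.9) and 171.8 CPM (128.3 to 225.3) in the latter, with intervals that overlapped in both. The levels did not follow each other in every cluster. Venous cells at P6 had immediate early genes at 1237 CPM and the lowest level of the inducible members, 45.7 CPM (24.3 to 78.1). That level came from 13 UMIs, with an interval that overlapped those of the other P6 clusters. Cap-Venous cells at P15 had 3457 CPM and 90.4 CPM (70.3 to 114.4), beside 3312 CPM and 156.9 CPM (120.3 to 201.1) in Stalk cells.

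Other genes were then ranked by their likeness to the inducible members. Among 2267 genes with at least 500 UMIs in each library, the highest mean correlation with the average log-normalised value of the 4 inducible members was that of Fos (r = 0.150 over 1424 P6 cells and 0.286 over 1644 P15 cells), followed by Jun, Junb, Ier2, Dusp1, Jund, Brd2, Btg2, Klf4 and Ccn1. Of these 10 genes, 6 are on the list of 11 immediate early genes, and the other 4 (Jund, Brd2, Klf4 and Ccn1) are not. The middle 50% of genes lay between -0.0086 and 0.0301 at P6 and between 0.00286 and 0.0436 at P15. Cells of a library share its preparation, and in counts this sparse these values describe the libraries only.

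Cells thinned to 2000 UMIs were also divided by whether they held a UMI of Hspa1a or Hspa1b. In the 9 such P6 cells immediate early genes were at 4611 CPM, 4.90 (3.89 to 6.10) times the 941.2 CPM of the other 1402 cells, and in the 42 such P15 cells at 6512 CPM, 1.91 (1.75 to 2.08) times the 3409 CPM of the other 1430. The 8 other members had intervals that included 1 at both ages, so no difference in them was detectable with so few cells. At the deposited depth the cells with such a UMI were deeper than the others (medians of 6451 and 4965.5 UMIs at P6, and of 5536 and 4157.5 at P15), and some intervals lay above 1. In the 24 such P6 cells these were Hspb1 at 2.27 (1.23 to 3.87), Hsp90aa1 at 1.54 (1.16 to 2.01) and Hspa8 at 1.18 (1.05 to 1.31) times the others. In the 82 such P15 cells they were Dnajb1 at 1.39 (1.05 to 1.82) and Hspb1 at 1.26 (1.02 to 1.54) times. Pericyte markers were at 1012 CPM in the 42 P15 cells and at 274.8 CPM in the others, a ratio of 3.68 (2.91 to 4.61), and were found in 21.4% and 16.9% of them. At the deposited depth this ratio was 1.73 (1.48 to 2.003) over the 82 cells, and 0.897 (0.447 to 1.61) over the 9 cells with at least 3 such UMIs. P15 cells with a Dnajb1 UMI (224 cells) held Hsp90aa1 at 238.8 CPM against 162.3 CPM, a ratio of 1.47 (1.18 to 1.83), and immediate early genes at 1.40 (1.34 to 1.47) times the other cells, whereas at P6 (106 cells) these ratios were 0.898 (0.646 to 1.22) and 1.08 (0.939 to 1.24).

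For Hspb1 no such difference in immediate early genes was detectable. Cells with an Hspb1 UMI held them at 1.11 (0.957 to 1.29) times the others at P6 and at 1.02 (0.977 to 1.07) times at P15. At P6, the 91 cells with an Hspb1 UMI held Hsp90aa1 at 0.632 (0.413 to 0.928) and Hspe1 at 0.647 (0.445 to 0.912) times the others. At P15 the 408 such cells held Hspe1 at 1.28 (1.03 to 1.598) times. In the passing cells with no UMI of Fos, Fosb or Egr1 after thinning (1223 P6 and 863 P15 cells, a choice made after the data were seen), the P15 to P6 ratio was 4.57 for Hspb1, 1.63 for Dnajb1, 2.27 for Hspa1a and 1.75 for the summed inducible members. The ratios of Hspe1 and Hsp90ab1 in those cells were 0.468 and 0.726.

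Genes that work with the members were read from lists. Over all 10972 genes, 18.8% were at least 1.5-fold higher at P15 and 11.8% at least 1.5-fold lower. Of 10 heat shock factors and inducible partners, all with 50 UMIs, 1 was at least 1.5-fold higher and none lower. This was Cryab, a small heat shock protein like Hspb1, with 8 UMIs at P6 and 125 at P15, a ratio of 16.2 (7.98 to 38.4). The summed markers of each other cell type were also higher at P15, with those of pericytes at 9.81 and 262.1 CPM. Their part in the Cryab ratio was not tested. Hsf1 (1.07, 0.870 to 1.32) and Hsf2 (1.04, 0.840 to 1.28) had intervals that included 1. The lowest ratio was that of Chordc1, which encodes an HSP90-binding protein, at 0.938 (0.813 to 1.08). Of 8 HSP70 co-chaperones, Dnaja1, a J-domain protein, was higher at 1.69 (1.61 to 1.79), none was lower, and the lowest was the exchange factor Hspbp1 at 0.770 (0.615 to 0.962). Of 9 HSP90 co-chaperones, Fkbp4, an immunophilin of steroid receptor complexes, was higher at 1.57 (1.43 to 1.72), and 2 were lower. Of these, Fkbp5, an immunophilin induced by glucocorticoids, had the lowest ratio of 0.211 (0.103 to 0.397), from 59 and 12 UMIs. The other was Ptges3, which encodes the co-chaperone p23, at 0.584 (0.531 to 0.642).

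All 8 subunits of TRiC, the cytosolic chaperonin that folds actin and tubulin, had ratios below 1. The share of all genes below 1 was not counted. Only 1 subunit was at least 1.5-fold lower, where 11.8% of all genes were. The intervals of Cct5, at 0.946 (0.892 to 1.003), and Cct7 included 1. Cct2 was at 163.6 CPM and 83.7 CPM, a ratio of 0.512 (0.464 to 0.564), and Cct7 was nearest to level at 0.980 (0.921 to 1.04). The median log2 ratio of TRiC was -0.26, beside 0.12 over all genes. Of 6 other mitochondrial chaperones and proteases none lay 1.5-fold away, where 30.7% of all genes did in either direction. They ran from Hspa9, the mitochondrial HSP70, at 0.886 (0.807 to 0.974) to its J-domain partner Dnaja3 at 1.28 (1.07 to 1.52). Their median log2 ratio was 0.14, whereas Hspd1 and Hspe1 were both past 1.5-fold. Of 12 chaperones of the endoplasmic reticulum, 1 was at least 1.5-fold higher, where 18.8% of all genes were, and 2 were lower, where 11.8% were. The higher one was the J-domain partner Dnajb9 at 1.91 (1.72 to 2.13). Lower were Sdf2l1, at the lowest ratio of 0.416 (0.338 to 0.508), and Hyou1, a relative of HSP110, at 0.596 (0.424 to 0.831), from 101 and 58 UMIs. Hspa5, the reticulum HSP70 known as BiP, was at 0.994 (0.949 to 1.04).

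**Figure D4:**
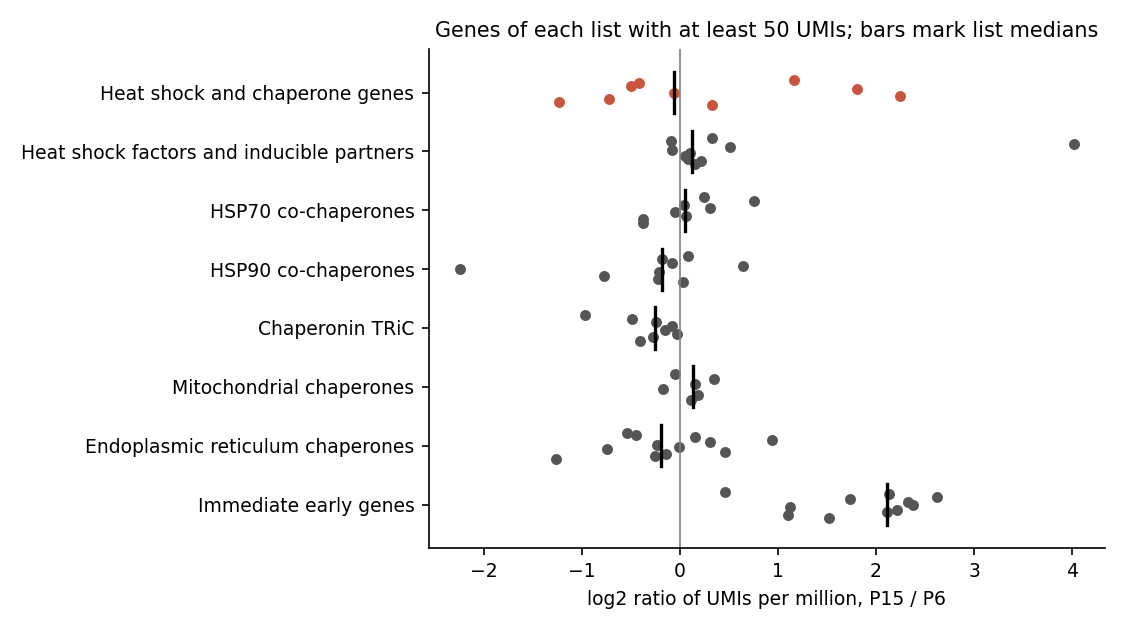
The log2 ratio of P15 to P6 CPM for each gene with at least 50 UMIs, by list, with the list median as a bar. The 8 TRiC subunits lie below 0, the immediate early genes lie above 0 with a median of 2.11, and the heat shock and chaperone genes (red) lie on both sides, from Hspe1 at -1.23 to Hspb1 at 2.24.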

How the data were processed

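The authors deposited, per age, the counts of UMIs of each gene and cell barcode, whole numbers without normalization. The submitters' processing notes name Seurat 3.0 and the build mm10, and the aligner and annotation of these counts are not given in the sources used here. Identifiers were matched to symbols with Ensembl names, except 39 at P6 and 40 at P15. Deposited totals were 13958124 UMIs in 1984 barcodes at P6 and 11589641 UMIs in 2141 barcodes at P15. The study's exclusion criteria were read as keeping cells of 200 to 3500 genes with up to 5% of UMIs from mitochondrial genes and without Hbb-bt, Neurod1 and Cd63 UMIs. No doublet caller was run. Cluster labels came from the study's source data.

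UMIs were summed over cells and divided by the summed UMIs of all genes. Levels carry exact Poisson intervals, shares of cells Clopper-Pearson intervals, and ratios intervals conditional on the summed count. A count of 0 was bounded with 3 counts. With 1 library per age no test was made and a fold of 1.5 among genes with at least 50 UMIs was used instead. In simulated counts for the P15 to P6 comparison, with 200 genes changed by known ratios, 95.9% of the intervals of 10972 genes included the ratio used. Most of these genes were unchanged. For the changed genes, in groups of 50 by ratio, the share ran from 90% at a ratio of 2 to 96%. The simulation checks how the intervals were calculated. It cannot show variation between cells or libraries, because the intervals cover counting error only. Log-normalised values are logs of 1 plus UMIs per 10000. Named beside the members were, of each list, the genes with the highest and lowest ratio, and the 10 genes most like the inducible members. Hsf1, Hsf2, Ptges3, Hyou1 and Hspa5 were named after their values were seen. Python 3.11.15, numpy 2.4.6, scipy 1.17.1 and pandas 2.3.3 were used, and edgeR 4.0.16 for TMM factors. Gene members and lists were chosen with earlier results of these data known.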

Additional observations from a re-analysis of the deposited data

Results flagged for a closer look

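Hsp90aa1 stood out in barcodes that the exclusion criteria leave out of the passing cells. In barcodes with a UMI of Neurod1, a transcription factor of retinal neurons, it was at 979.3 CPM (914.5 to 1048) at P6 (98 barcodes) and 1093 CPM (925.4 to 1283) at P15 (17 barcodes), which is 4.203 and 6.27 times its level in the passing cells of the same library. Hspb1 was at 6.95 CPM (2.55 to 15.1) in these barcodes at P6 and 131.2 CPM (77.8 to 207.4) at P15. The other members were compared in the same way and none was flagged.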

How the results depend on the processing

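No paired analysis was possible because each age is 1 library. The directions of the P15 to P6 ratios of Hspa1a, Dnajb1, Hspb1, Hsp90aa1, Hsp90ab1, Hspa8, Hspd1 and Hspe1 were the same under all 13 alternative choices of cells, depth and scaling, and 93 of 129 single-gene values stayed inside the counting interval of the reported ratio. Hspb1 lay between 4.25 and 5.67, Dnajb1 between 1.63 and 2.30, Hspe1 between 0.383 and 0.468 and Hsp90ab1 between 0.638 and 0.726. Hsph1 lay between 0.825 and 1.997. The count of members past 1.5-fold was 5 or 6, and 4 members were past 2-fold. Hsph1 was past it with thinned cells (1.74), with no UMI of other cell types (1.55) and with no UMI of Fos, Fosb or Egr1 (1.997), Hsp90aa1 with every barcode (0.615), and Hsp90ab1 with TMM scaling (0.649) and without mitochondrial and ribosomal genes (0.638), while Hspd1 was not with thinned cells (0.704). The ratio of the summed inducible members moved to 1.81 with every barcode, to 1.79 in cells with no UMI of other cell types and to 1.75 in cells with no UMI of Fos, Fosb or Egr1. The median log2 ratio of the members moved to -0.17 with every barcode, -0.16 in labelled cells, -0.28 with each cluster weighted equally, -0.19 with TMM scaling and -0.21 without mitochondrial and ribosomal genes, while the median of all genes, 0.12 as reported, was -0.0052 with TMM scaling and -0.0297 without mitochondrial and ribosomal genes. At a 2-fold threshold 5 pairs of member and cluster were counted at P6 and 0 at P15. With thinned cells the count at 1.5-fold was 21 at P6, in place of 14, and 14 at P15, in place of 6. With the mean of per-cell values it was 20 at P6 and 6 at P15. The share of all pairs of gene and cluster was not counted in these settings. The median ratio of the other members in cells with an Hspa1a or Hspa1b UMI was 1.14 at P6 and 1.12 at P15, and within clusters of at least 100 labelled cells 0.167 at P6, where clusters held 1 to 4 such cells, and 0 at P15, where the only such cluster held 2. No thinned cell reached 3 UMIs of these genes, so that split gave no value. The causes were not tested. Depth limits Hspa1b, Hsph1 and the clusters of few cells.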
